A study of Mus musculus with 20 samples.

Results

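Alternatively activated macrophages are macrophages that have responded to interleukin-4 (IL-4) or interleukin-13 (IL-13). Both cytokines signal through receptors that share the IL-4 receptor alpha chain (Il4ra) and activate the transcription factor STAT6, and in the mouse the response is recognized by the chitinase-like proteins Chil3 (Ym1) and Chil4 (Ym2), the resistin-like protein Retnla (Fizz1), arginase 1 (Arg1) and the lectin receptors Mrc1 (CD206) and Mgl2 (CD301b). Several of these genes are also transcribed outside macrophages: Chia, the acidic mammalian chitinase, and Retnla are known products of airway epithelium as well. These 8 genes and Ear11, an eosinophil-associated ribonuclease, were examined in mouse tracheas. Members were chosen by name: every non-control probe on the array whose gene name was one of the 9 was taken, with the older names Chi3l3 and Chi3l4 read as Chil3 and Chil4. This gave 11 probes for 9 genes, among 41174 probes for 27670 gene names on the array. No measured value entered this choice.

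The data were 20 one-colour expression arrays of whole-trachea RNA, 5 in each of 4 groups: wild-type control, Myd88KO control, wild-type injury and Myd88KO injury. Wild-type mice were C57/Bl6, and Myd88KO mice carried a germline knockout of Myd88, the adaptor of most Toll-like receptors and of the IL-1 family receptors. Injured mice of either genotype had received 2% polidocanol, a detergent that strips the tracheal epithelium, 3 days before collection, and control mice had not. The labels give an age of 4 months for all mice, while the study's methods give 4 to 6 months and animals of both sexes. The methods describe knockouts backcrossed for 6 generations and bred as knockout pairs beside a separate wild-type colony, so that genotype and colony cannot be told apart. RNA came from the whole organ, so fewer cells of a type and less RNA per cell cannot be told apart in any value below.

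Values are log2 signals relative to the 75th percentile of the same array, and differences are on the same log2 scale. Levels of different probes are not compared, because brightness per molecule differs between probes. Testing required a signal well above background on 10 or more arrays, and a probe was called at a Benjamini-Hochberg adjusted p under 0.01 in limma over all 26063 tested probes. Of the 11 member probes, 10 were tested, covering all 9 genes. Between 57.5% and 67.8% of spots were well above background on each array. The replicate number is that of the slide, on which all 4 groups were represented once, and slides 2, 3 and 4 were scanned on one day and slides 1 and 5 on another.

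Scgb1a1, the major secretory protein of club cells, served as a check of the injury. It read 6.98 to 8.25 on the 10 control arrays and -1.16 to -0.08 on the wild-type injury arrays, but 4.79, -0.84, 2.72 and 0.18 on Myd88KO injury arrays 1 to 4 (array 5 was flagged as an outlier spot and left out). An injury score, the slope of an array's differences from the control mean of its genotype on the wild-type injury differences of the 1372 probes called there (with the array itself left out), was 0.341, 0.974, 0.503, 0.965 and -0.027 on Myd88KO injury arrays 1 to 5, against 0.847 to 1.14 on the wild-type injury arrays. Arrays 1, 3 and 5 lay below every wild-type injury array and arrays 2 and 4 within their range. An array was left out of the means but not of the choice of the 1372 probes. High scores of the wild-type injury arrays therefore follow in part from that choice, and the scores of the genotypes are not on equal terms. The Myd88 probe read 1.94 to 2.28 in wild-type control and 1.60 to 2.04 in Myd88KO control (difference -0.21, adjusted p = 1.00, limma), and 2.36 to 2.80 in wild-type injury and 1.54 to 2.09 in Myd88KO injury (-0.77, adjusted p = 0.00824, limma). Whether this probe lies in the deleted part of the gene is not given in the sources used here, so it does not check the genotype of the uninjured mice.

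Chil3 and Chil4 are neighbours on chromosome 3 and near-copies of each other, whereas Retnla lies on chromosome 16. Their promoters are shown because the signals of the first 2 moved together across the arrays and that of Retnla did not, although the Chil4 probe may also read Chil3. Whether the promoters have a part in these patterns was not tested. Each line gives the 250 bases before the RefSeq start of the gene, 5′ to 3′ in the direction of transcription, in GRCm38.p6. Capitals mark TTC and GAA separated by any 4 bases, the spacing that STAT6 prefers, or by any 3 bases, the spacing of other STAT proteins. Both forms read the same on either strand and do not overlap here.

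Chil3 promoter, chr3:106167565-106167814, minus strand: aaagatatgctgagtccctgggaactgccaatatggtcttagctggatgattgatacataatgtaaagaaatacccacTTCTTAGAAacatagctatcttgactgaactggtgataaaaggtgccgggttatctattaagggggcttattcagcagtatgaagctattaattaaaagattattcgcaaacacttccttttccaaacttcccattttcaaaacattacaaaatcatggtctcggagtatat
Chil4 promoter, chr3:106219480-106219729, minus strand: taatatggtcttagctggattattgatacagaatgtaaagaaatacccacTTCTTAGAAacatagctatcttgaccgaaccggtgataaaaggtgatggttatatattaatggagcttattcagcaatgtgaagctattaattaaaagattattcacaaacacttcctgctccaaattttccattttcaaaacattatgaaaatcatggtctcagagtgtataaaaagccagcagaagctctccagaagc
Retnla promoter, chr16:48842359-48842608, plus strand: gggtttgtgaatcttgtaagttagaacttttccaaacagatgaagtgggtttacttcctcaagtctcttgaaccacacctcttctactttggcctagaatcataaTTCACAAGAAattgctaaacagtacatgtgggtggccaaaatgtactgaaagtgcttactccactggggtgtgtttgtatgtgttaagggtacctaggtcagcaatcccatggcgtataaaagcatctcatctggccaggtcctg

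The Chil3 and Chil4 windows were identical at 201 of 221 aligned bases and each held a single match with the 3-base spacing, 172 and 200 bases before the start. Retnla held a single match with the 4-base spacing, 145 bases before the start. Of the 8 members with a promoter in the reference table (all but Arg1), the Chia, Mrc1, Mgl2, Il4ra and Ear11 windows held neither. Among 32851 mouse promoter windows of this length, 5.85% held the 4-base form and 7.02% the 3-base form. A match of letters is a description of the window and says nothing of binding, and its absence says only that the letters are not in these 250 bases.

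In the wild-type trachea, injury was accompanied by higher Chil3 and Il4ra and lower Chia. These were the 3 member probes called of 10 tested, 2 higher and 1 lower. Across all tested probes the share called in this comparison was 5.26% (3.24% higher and 2.03% lower). Of the 10 tested probes, 5 for 4 genes had control and injury arrays that did not overlap (Chil3, Il4ra, Chia probe A and both Retnla probes), against 12.6% of all tested probes. The median of the 9 genes' differences was 1.32, with a median of 0.00 over all tested probes. In Myd88KO tracheas, Chil3 was the single member called, against 0.376% of all tested probes (0.134% higher). The groups did not overlap for Chil3 and for the 9 arrays with a Chil4 value, against 3.45% of all tested probes. The plot of all member probes by array shows the values behind each statement that follows.

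**Figure D1:**
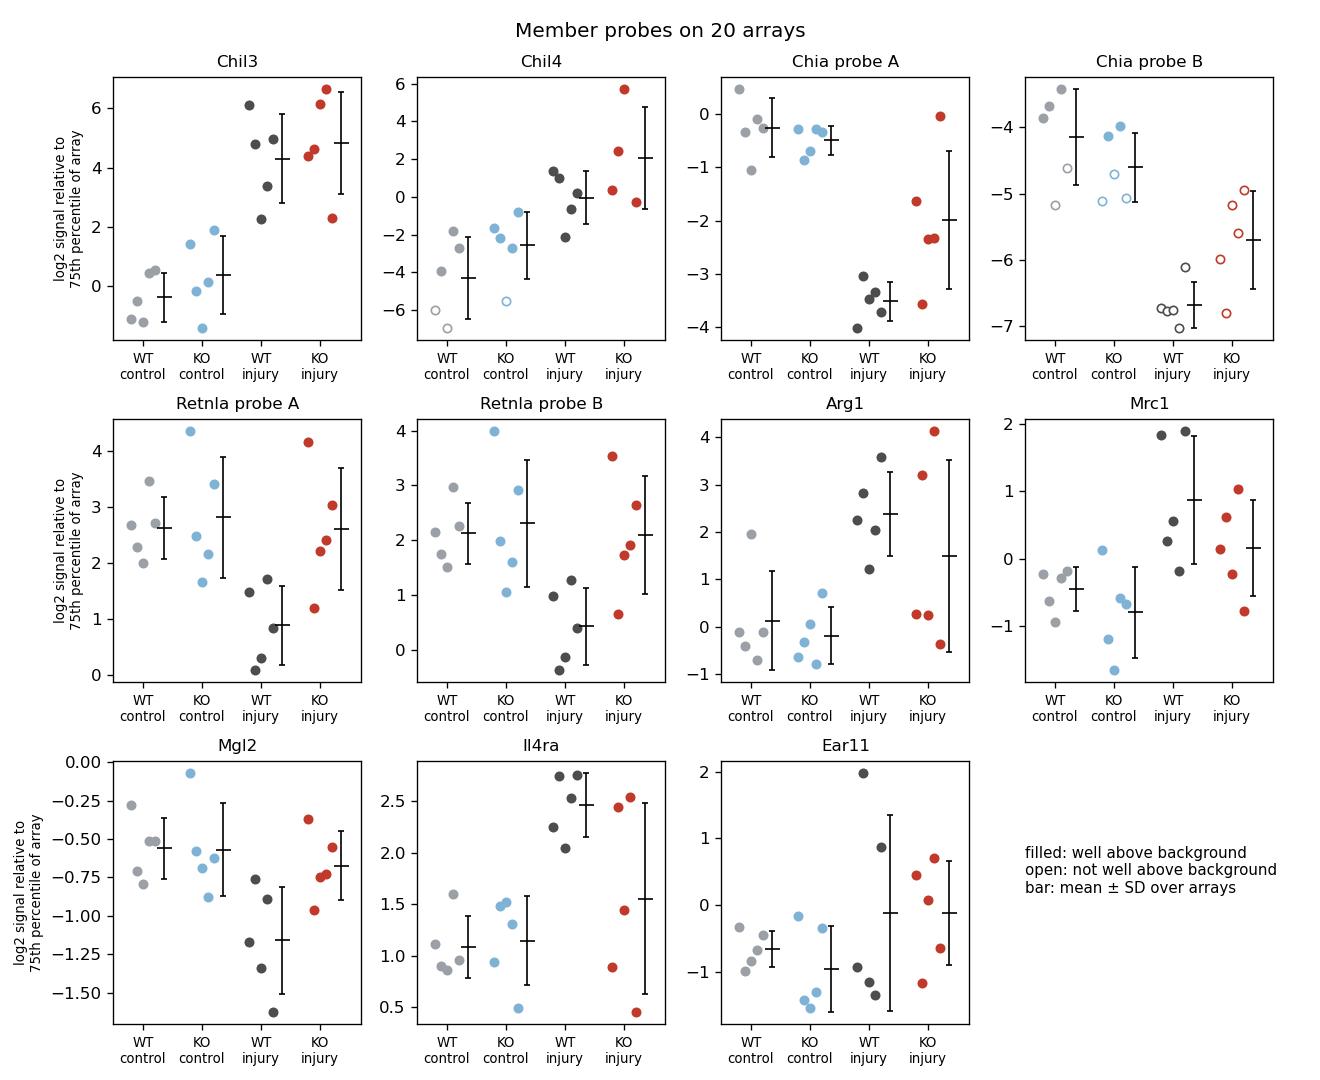
Log2 signal relative to the array's 75th percentile for the 11 member probes on 20 arrays (5 per group). Points are arrays in replicate order from left to right, filled where the spot was well above background, and bars are the mean ± SD. Chil3 lies between -1.43 and 1.88 on all control arrays and between 2.28 and 6.65 on all injury arrays, whereas for Chia probe A and the Retnla probes all wild-type injury arrays lie below all wild-type control arrays.

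Chil3, a secreted lectin-like relative of the chitinases without chitinase activity, had the widest injury response of the called members. Its probe lies at chr3:105965855-105965914 on the minus strand in the array design, whose genome build is not given in the sources used here. In replicate order it read -1.10, -0.51, -1.22, 0.43 and 0.53 in wild-type control and 6.10, 4.81, 2.28, 3.38 and 4.97 in wild-type injury. Every injured wild-type trachea lay above every control. The difference was 4.68 ± 0.80 (SE, n = 5 against 5), a 25.7-fold rise (95% interval 3.01 to 6.35 on the log2 scale, limma adjusted p = 0.0012), and it was positive on all 5 slides, from 2.95 to 7.21.

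In Myd88KO control Chil3 read 1.43, -0.17, -1.43, 0.15 and 1.88, and in Myd88KO injury 4.41, 4.63, 6.16, 6.65 and 2.29. The groups did not overlap here either. The difference was 4.46 ± 0.80 (SE, n = 5 against 5), a 21.9-fold rise (limma adjusted p = 0.00829). The adjusted p was 0.0119 with slide as a block, so that the call was lost there, and also without any of 15 single arrays, and was kept without Myd88KO injury replicate 5 (5.09, adjusted p = 0.000309, limma). Within slides the Myd88KO difference was 2.98, 4.80, 7.59, 6.50 and 0.41 for slides 1 to 5, which averages 6.30 over the slides of the first scanning day and 1.69 over those of the second. In wild-type the same means were 3.92 and 5.82. Slides 1 and 5, scanned on the second day, also hold the Myd88KO injury arrays of lowest injury score. Scanning day and injury score therefore cannot be fully told apart in Myd88KO injury.

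The injury responses of Chil3 in the 2 genotypes differed by -0.23 (Myd88KO minus wild-type, 95% interval -2.59 to 2.13, limma adjusted p = 0.957). That interval is wide, and a response in Myd88KO several-fold smaller or larger than in wild-type lies within it. Between the injured groups Chil3 was higher in Myd88KO on slides 3 and 4 (3.88 and 3.27) and lower on slides 1, 2 and 5 (-1.69, -0.17 and -2.68). The scanning-day means were 2.33 and -2.19, although slide 2, of the first day, had a negative difference.

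Chil4, the close paralogue of Chil3, was dimmer against background. Its probe is listed at chr3:106022134-106022413 on the minus strand, and the array annotation pairs it with a Chil3 transcript as well as with Chil4, so its signal may include Chil3. It read -5.97, -3.94, -6.97, -1.81 and -2.70 in wild-type control and 1.35, 1.01, -2.10, -0.64 and 0.20 in wild-type injury. The lowest injured trachea lay just below the highest control. The difference was 4.24 ± 1.16 (SE, n = 5 against 5) with a limma adjusted p = 0.0216, short of the threshold. Control replicates 1 and 3 were not well above background, and with another background correction (normexp) the difference was 2.45 (limma adjusted p = 0.0546). In Myd88KO it read -1.65, -2.17, -5.51, -2.73 and -0.80 without injury and 0.38, 2.43, 5.71 and -0.27 on injury arrays 1, 2, 3 and 5, array 4 having been left out as an outlier spot (4.63 over 4 injury arrays, limma adjusted p = 0.0465). Over 19 arrays Chil4 and Chil3 had a Pearson r of 0.913, and of 0.864 after the group means were removed; the arrays are shared and the probes may cross-hybridize, so this is a description.

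Chia, a true chitinase that is made in the airway and stomach, ran the opposite way to its relatives Chil3 and Chil4, which lie in the same stretch of chromosome 3. Probe A, at chr3:105950337-105950396, read 0.46, -0.34, -1.06, -0.09 and -0.27 in wild-type control and -4.02, -3.04, -3.46, -3.34 and -3.71 in wild-type injury. The groups were far apart, and the difference of -3.25 ± 0.43 (SE, n = 5 against 5) was a 9.54-fold fall (limma adjusted p = 0.000239), present on all 5 slides. In Myd88KO it read -0.28, -0.87, -0.69, -0.29 and -0.35 without injury and -1.64, -3.57, -2.34, -2.33 and -0.04 with injury. Of the 5 injured Myd88KO tracheas, 4 lay below all controls and replicate 5 lay above them, and the difference of -1.49 ± 0.43 (SE) was not called (limma adjusted p = 0.0653). Without Myd88KO injury replicate 5 it was -1.97 and called (limma adjusted p = 0.000838).

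Probe B of Chia, at chr3:105946793-105946852, was too dim to be tested. It was well above background on 3 wild-type control and 2 Myd88KO control arrays and on none of the 10 injury arrays. It ran from -5.17 to -3.43 in wild-type control and from -7.03 to -6.11 in wild-type injury, with no overlap, and from -5.12 to -3.99 and from -6.80 to -4.94 in the Myd88KO groups, which overlapped.

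Of 9 genes typical of secretory epithelium and glands, 3 were called lower in wild-type injury (Scgb1a1 -7.91, Scgb3a2 -5.77 and Bpifa1 -2.24) and none higher, with a median of -0.61. The other 6 were not called, among them Ltf, the lactoferrin gene (-0.03 for its brighter probe), and Scgb3a1 (-0.11). By probe, 3 of 10 tested were called lower, against 2.03% of all tested probes. The summed signal of the list, in multiples of the 75th percentile, ran from 2460 to 4220 in wild-type control, 1500 to 1960 in wild-type injury, 2510 to 4060 in Myd88KO control and 1430 to 2770 in Myd88KO injury. The probes whose pattern over the 20 arrays was most like that of Chia probe A were Sntn, a protein of motile cilia (Pearson r = 0.980), Prr18 (0.972) and Tctex1d4 (0.971). This likeness, as for the other members below, includes the differences between groups and is a description. The part of epithelial cell number in the Chia values was not tested.

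Retnla is a small secreted protein that alternatively activated macrophages and airway epithelium release. Its 2 probes, at chr16:48604517-48604576 and chr16:48604507-48604566, overlap by most of their length, so they are a single measurement (r = 0.998 between them) and probe A is described. It read 2.68, 2.29, 2.01, 3.47 and 2.73 in wild-type control and 1.49, 0.09, 0.32, 1.72 and 0.85 in wild-type injury. All injured wild-type tracheas lay below all controls. The difference was -1.74 ± 0.52 (SE, n = 5 against 5), with a limma adjusted p = 0.0323 that missed the threshold; with slide as a block it passed (limma adjusted p = 0.00606 for probe A and 0.00822 for probe B). On each slide the injured array was lower than its control, by differences of -1.19, -2.20, -1.69, -1.76 and -1.88.

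In Myd88KO, Retnla read 4.36, 2.49, 1.66, 2.17 and 3.42 without injury and 4.17, 1.21, 2.22, 2.41 and 3.05 with injury. These groups overlapped throughout, and the difference was -0.21 ± 0.52 (SE, n = 5 against 5, limma adjusted p = 0.865), with a sign that turned under 2 of the alternatives. Between the injured groups Myd88KO was 1.72 above wild-type (95% interval 0.63 to 2.80, limma adjusted p = 0.161). It was higher on all 5 slides, by 2.68, 1.12, 1.90, 0.69 and 2.20, and most so on slides 1 and 5. The difference of 1.72 did not pass the correction over all tested probes, nor did the difference between the 2 injury responses (1.53, limma adjusted p = 0.482). Between the uninjured groups Retnla differed by 0.18 (95% interval -0.90 to 1.27). The most similar probes over the arrays were Ift57, a protein of cilia assembly (r = 0.859), Mccc1 (0.853) and Etfdh (0.850), the latter 2 being mitochondrial enzymes.

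**Figure D2:**
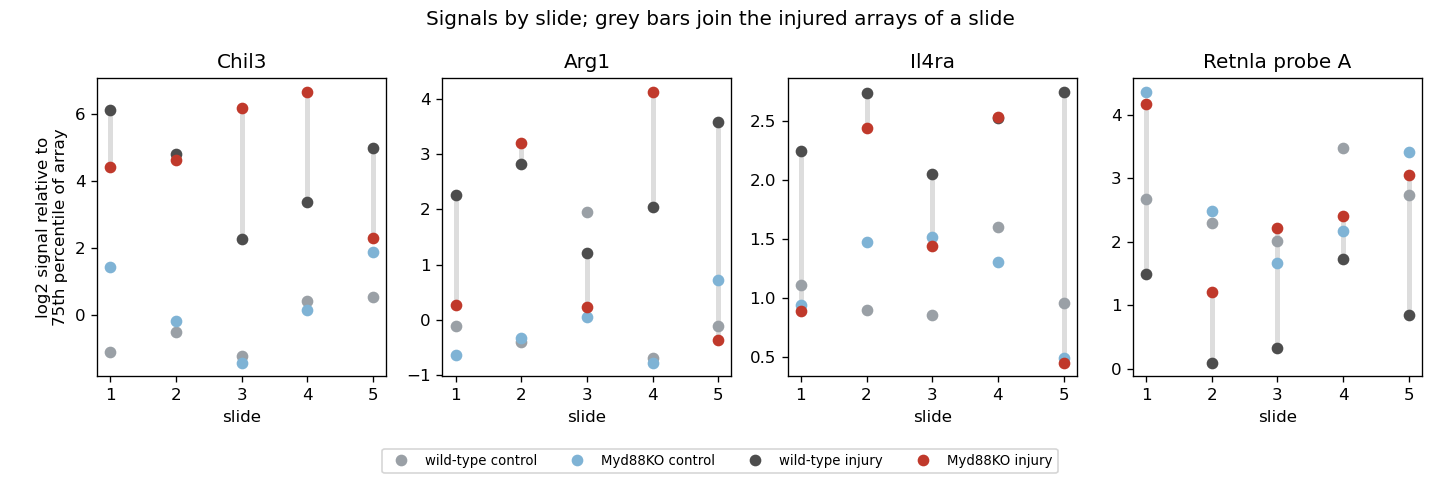
Log2 signal relative to the array's 75th percentile against slide number for Chil3, Arg1, Il4ra and Retnla probe A, with 1 array of each group per slide and a grey bar between the injured arrays of the slide. For Retnla the Myd88KO injury array lies above the wild-type injury array on all 5 slides, while for Chil3 and Arg1 the order of the injured arrays changes between slides.

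Arg1, which converts arginine to ornithine and urea, lies at chr10:24669046-24669105 by its probe. It read -0.12, -0.40, 1.95, -0.69 and -0.11 in wild-type control and 2.26, 2.82, 1.21, 2.04 and 3.58 in wild-type injury. Apart from control replicate 3, all controls lay below all injured tracheas. The difference of 2.25 ± 0.73 (SE, n = 5 against 5) was not called (limma adjusted p = 0.0481). In Myd88KO it read -0.63, -0.32, 0.05, -0.78 and 0.72 without injury and 0.27, 3.21, 0.24, 4.13 and -0.36 with injury. Replicates 2 and 4 of the injured Myd88KO mice were as high as injured wild-type mice, and the other 3 lay within the control range, for a difference of 1.69 ± 0.73 (SE, limma adjusted p = 0.210). The within-slide differences averaged 2.88 on the first scanning day and -0.09 on the second. In wild-type they averaged 1.73 and 3.03.

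Arginine can feed either arginase or nitric oxide synthase, and ornithine feeds the synthesis of polyamines and proline. Of the 11 genes of arginine and polyamine metabolism, all tested, none was called for injury in either genotype. The lowest p in wild-type was that of Sms, spermine synthase (-0.77, limma adjusted p = 0.0492).

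Mrc1, the macrophage mannose receptor, at chr2:14281098-14281158, read -0.23, -0.63, -0.94, -0.29 and -0.18 in wild-type control and 1.83, 0.26, 0.55, -0.19 and 1.89 in wild-type injury. The groups met at a single pair of values, and the difference of 1.32 ± 0.41 (SE, n = 5 against 5) was not called (limma adjusted p = 0.0399). In Myd88KO it ran from -1.66 to 0.13 without injury and from -0.78 to 1.03 with injury (0.95, limma adjusted p = 0.211). Within slides the Myd88KO difference was 0.01, 1.81, 1.43, 1.62 and -0.11 for slides 1 to 5, near 0 on slides 1 and 5. Its closest neighbours in pattern were Clec5a (r = 0.973), Evi2a (0.971) and Tlr7 (0.967), the first and last being receptors of myeloid cells.

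Mgl2, a galactose-binding lectin receptor, at chr11:70218604-70218663, did not go with Mrc1. It read -0.28, -0.71, -0.79, -0.51 and -0.51 in wild-type control and -1.17, -0.76, -1.34, -0.89 and -1.63 in wild-type injury, a difference of -0.60 ± 0.18 (SE, n = 5 against 5, limma adjusted p = 0.0348). A single injured trachea lay inside the control range. In Myd88KO the groups ran from -0.88 to -0.07 and from -0.96 to -0.37, a difference of -0.10 (95% interval -0.48 to 0.28). No alternative called it in Myd88KO, where its sign also turned under 1 of them.

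Il4ra, the receptor chain that the IL-4 and IL-13 receptors have in common, lies at chr7:121674181-121674240 by its probe. It read 1.11, 0.90, 0.86, 1.60 and 0.96 in wild-type control and 2.25, 2.74, 2.05, 2.53 and 2.75 in wild-type injury. Every injured wild-type trachea was above every control, and the difference of 1.38 ± 0.33 (SE, n = 5 against 5) was called by a narrow margin (limma adjusted p = 0.00986). The call was lost with quantile normalization (limma adjusted p = 0.0145), without a filter on dim probes (0.0156) and with outlier spots kept (0.0103). The size hardly varied, from 1.18 to 1.51 over the alternatives tried, but the adjusted p ran from 0.001 to 0.0279, and the call was lost too without any single wild-type array, without any of Myd88KO control replicates 1 to 4 and without Myd88KO injury replicate 3. In Myd88KO it read 0.94, 1.48, 1.52, 1.31 and 0.49 without injury and 0.89, 2.44, 1.44, 2.54 and 0.45 with injury. Replicates 2 and 4 were at the level of injured wild-type mice, as for Arg1, and the difference was 0.40 ± 0.33 (SE, limma adjusted p = 0.540). The difference between the injured groups was -0.91 (95% interval -1.60 to -0.22, limma adjusted p = 0.244). Its nearest probes in pattern were Nek6 (r = 0.969), Emilin2 (0.965) and Ctsz, a cathepsin (0.962).

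Ear11, now named Rnase2a, belongs to a multigene family whose members are nearly identical, so its probe, at chr14:46589069-46589128, may read several of them. It ran from -0.99 to -0.33 in wild-type control and from -1.35 to 1.98 in wild-type injury, where replicates 2 and 5 were high (1.98 and 0.87) and the other 3 lay within or below it. The difference was 0.54 (limma adjusted p = 0.552), and in Myd88KO 0.84. The 3 probes most like it were those of Ear10 (r = 0.979), Ear1 (0.976) and Ear6 (0.956), and none of the 6 tested genes of that list was called. Of the 6 genes listed as eosinophil markers, 2 were tested and none was called. Epx, the eosinophil peroxidase, Il5ra, the IL-5 receptor, and Siglece, which is not specific to eosinophils, were not well above background on any array. Prg2, the eosinophil major basic protein, was so on 1 wild-type control, 2 wild-type injury and 3 Myd88KO injury arrays and was not tested. The tested probe of Ccr3, the eotaxin receptor, was so on 1 array of each control group, on 5 wild-type injury and on 3 Myd88KO injury arrays, with differences of 0.97 in wild-type (limma adjusted p = 0.190) and 0.87 in Myd88KO (0.315). This probe passed the filter on dim probes mostly through injury arrays, so these positive differences follow in part from the filter. Alox5 was well above background on all 20 arrays. Siglec5, which eosinophils also express, was listed with the alveolar macrophage genes. It was well above background on no control array, on 5 wild-type injury arrays and on 2 Myd88KO injury arrays, and was not tested. The part of eosinophils in the Ear11 values was not tested.

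**Figure D3:**
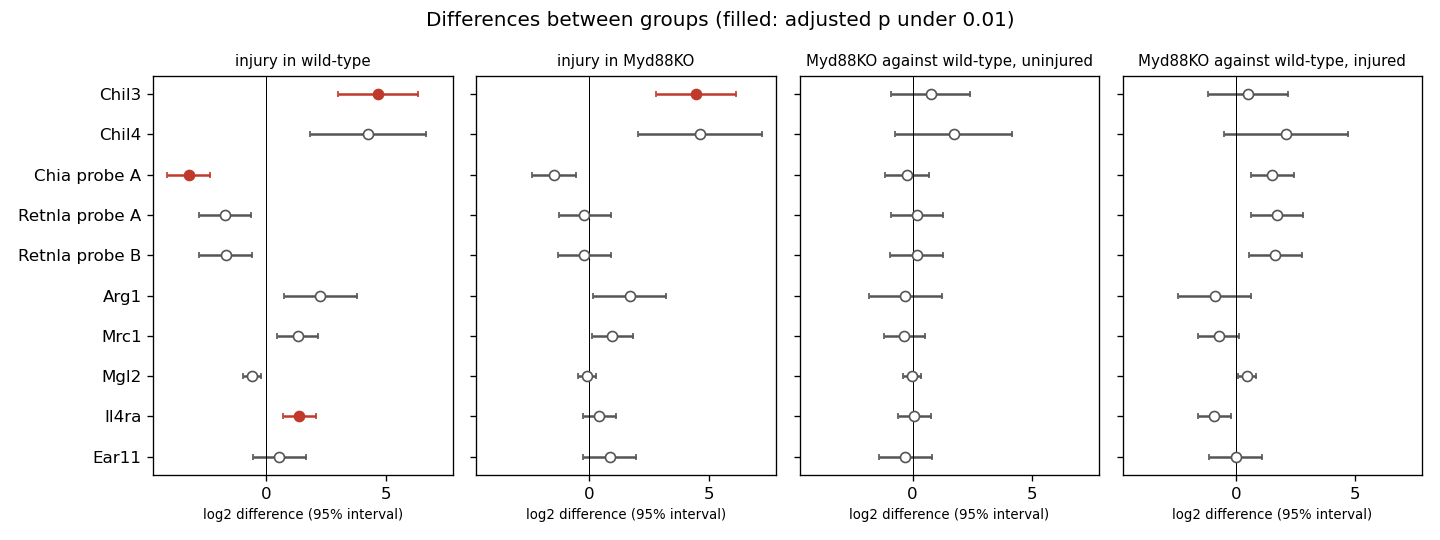
Log2 differences between groups for the 10 tested member probes, with 95% intervals from limma; filled red points were called at an adjusted p under 0.01. The called points are 3 for injury in wild-type and 1 for injury in Myd88KO, with none between genotypes.

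Between genotypes no member probe was called. In uninjured tracheas the share of all tested probes called was 0.384%, and every member had a limma adjusted p of 1.00, with differences from -0.34 (Mrc1) to 1.71 (Chil4, 95% interval -0.73 to 4.14). In injured tracheas the share was 0.38%. There 5 of the 10 tested probes, for 4 genes, had an unadjusted p under 0.05 in limma, against 12.5% of all tested probes, and all failed the correction: Chia probe A (1.53, limma adjusted p = 0.131), both Retnla probes, Mgl2 (0.49, limma adjusted p = 0.256) and Il4ra. On slides 1 to 5 the difference of Chia probe A was 2.38, -0.53, 1.12, 1.01 and 3.67. That of Il4ra was -1.36, -0.29, -0.61, 0.00 and -2.30. For Mgl2 it was 0.80, -0.20, 0.60, 0.15 and 1.08, and for Retnla probe A 2.68, 1.12, 1.90, 0.69 and 2.20. All 4 genes had their widest differences on slides 1 and 5, which hold the Myd88KO injury arrays of lowest injury score. For the difference between the 2 injury responses no probe was called in the whole series (a share of 0%, with 2703 probes at an unadjusted p under 0.05 in limma), and the lowest adjusted p among the members was that of Chia probe A (1.77, limma adjusted p = 0.391). These comparisons share arrays: the injured wild-type group enters both the injury response and the comparison of injured genotypes.

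Few genes for the inducing ligands could be measured. Of 8 genes for cytokines and alarmins of type 2 and related responses (Il4, Il5, Il9, Il10, Il13, Il25, Il33 and Tslp), 3 were tested and none was called in either genotype: Il13 differed by -0.02, Tslp by 0.15 and Il33 by 1.04 (limma adjusted p = 0.0926) in wild-type injury. Il13 and Il33 were well above background on all 20 arrays and Tslp on 12. The Il4 probe was so on 3, which were 1 wild-type injury and 2 Myd88KO injury arrays, and on no control array. Of 8 tested genes for the receptors and their signalling, none was called, and the lowest p was that of Il2rg, the common gamma chain (1.94, limma adjusted p = 0.0109). None of 9 transcription factors of alternative activation was called. Among genes of the type 2 response of epithelium, Clca1 (-3.34) and Itln1 (-2.08) were the 2 of 8 tested genes called in wild-type injury, both lower. By probe they were 2 of 9 tested, against 2.03% of all tested probes called lower. Clca1 was 4.21 higher in Myd88KO injury than in wild-type injury (limma adjusted p = 0.000484), and Itln1 was -2.43 in uninjured Myd88KO against uninjured wild-type (limma adjusted p = 0.0052), the 1 listed gene called in each of these comparisons.

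Of 18 tested other genes known from alternatively activated macrophages, 8 were called higher and 1 lower in wild-type injury, with a median of 1.25. By probe, 10 of 29 tested were called higher and 1 lower, against 3.24% and 2.03% of all tested probes. The strongest by adjusted p were Stab1, a scavenger receptor (1.68), Ccl8, a chemokine (3.38), and Trem2, a lipid-sensing receptor (3.75). The gene called lower was Alox15, a lipoxygenase of resident macrophages and eosinophils (-3.21). A tested probe of Msr1 was well above background on 1 wild-type control, 2 Myd88KO control, 5 wild-type injury and 3 Myd88KO injury arrays. It passed the filter on dim probes mostly through injury arrays, so its positive difference follows in part from the filter. In Myd88KO, Ccl8 was the only gene of this list called (3.01, limma adjusted p = 0.00866), and the median was 0.56. That was 1 of 29 tested probes, against 0.134% of all tested probes called higher. Ccl8 was also the probe whose pattern over the 20 arrays was most like that of Chil3 (r = 0.889).

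Genes that mark macrophages of any state were listed apart. In wild-type injury 8 of 10 tested macrophage identity genes were called higher, among them Fcgr1, an immunoglobulin receptor (3.60), Cd68 (3.27) and the complement genes C1qa (1.78) and C1qb (1.77), and none lower (median 1.81). By probe, 10 of 16 tested were called higher, against 3.24% of all tested probes. In Myd88KO none was called. The summed signal of this list ran from 305 to 540 in wild-type control, 335 to 560 in wild-type injury, 279 to 483 in Myd88KO control and 283 to 458 in Myd88KO injury. Such a sum adds signals of different probes, and most of it came from Lyz2, the lysozyme gene, which differed by -0.06 in wild-type injury (limma adjusted p = 0.888). Without Lyz2 the sum ran from 9.42 to 14.3 in wild-type control, 24.9 to 80.7 in wild-type injury, 10.1 to 17.3 in Myd88KO control and 8.68 to 45.0 in Myd88KO injury, so that the wild-type groups did not overlap and the Myd88KO groups did. The counts of 8 depended on single arrays: without wild-type control replicates 2 or 4, or wild-type injury replicate 1, each fell to 4. They were 5 for both lists without wild-type control replicate 5, while wild-type injury replicate 5 gave 4 macrophage and 5 activation genes, and wild-type injury replicates 2 and 4 gave 5 activation genes. The part of macrophage number in the values of Chil3, Arg1, Mrc1 and Il4ra was not tested.

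All 4 tested neutrophil genes had positive differences in wild-type injury, with a median of 3.34, and 1 was called (Csf3r, 4.05, well above background on 2 of 5 control arrays). Of other lists, 1 of 9 tested genes of classical activation was called (Ccl3, 5.98, well above background on 1 control array), 1 of 6 of alveolar macrophages (Itgax, 1.58) and 1 of 5 of dendritic cells (Ccr7, 2.47, well above background on 2 control arrays). By probe these were 1 of 12, 1 of 10 and 1 of 9 tested, where 3.24% of all tested probes were called higher. The other tested probe of Itgax went the other way, with means of -3.54 in wild-type control and -4.25 in wild-type injury. The tested probes of Csf3r, Ccl3 and the neutrophil gene Cxcr2 were well above background mostly on injury arrays. They passed the filter on dim probes through those arrays, so their positive differences follow in part from the filter. For Csf3r and Ccl3 most wild-type control values were not well above background, so the sizes of 4.05 and 5.98 are uncertain. Of 7 genes of type 2 lymphoid cells, with 10 tested probes, 1 was called by 1 of its 2 tested probes. This was Il1rl1, the IL-33 receptor, whose called probe was well above background on none of the 5 wild-type control arrays. It was so on 2 Myd88KO control, 5 wild-type injury and 4 Myd88KO injury arrays. That probe too passed the filter on dim probes mostly through injury arrays, so its positive difference follows in part from the filter. It was at least 13.1-fold higher after injury in wild-type (limma adjusted p = 0.000947), set against the lowest signal well above background on each control array. The other tested probe of Il1rl1, well above background on all 20 arrays, differed by -0.18 (limma adjusted p = 0.706). None of the 5 monocyte genes, of the 5 tested mast cell and basophil genes, of the 2 tested eosinophil genes or of the 3 tested gastric genes was called. The same held for the 5 other chitinase family genes, where Chil1 had the lowest p (1.21, limma adjusted p = 0.0988), and for the 2 tested resistin family genes, of which Retnlg, a granulocyte product, differed by 4.19 (limma adjusted p = 0.0117). Retnlg was well above background on 2 wild-type control, 2 Myd88KO control, 5 wild-type injury and 4 Myd88KO injury arrays. The size of 4.19 is therefore uncertain too and follows in part from the filter. The summed neutrophil signal ran from 2.49 to 33.1 in wild-type control, 14.4 to 256 in wild-type injury, 0.351 to 2.31 in Myd88KO control and 0.384 to 41.4 in Myd88KO injury. Of 6 genes of distal lung epithelium, 3 were called lower (Sftpa1, Sftpc and Sftpd). By probe these were 4 of 7 tested, against 2.03% of all tested probes called lower. The part of the cells of these lists in the member values was not tested.

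**Figure D4:**
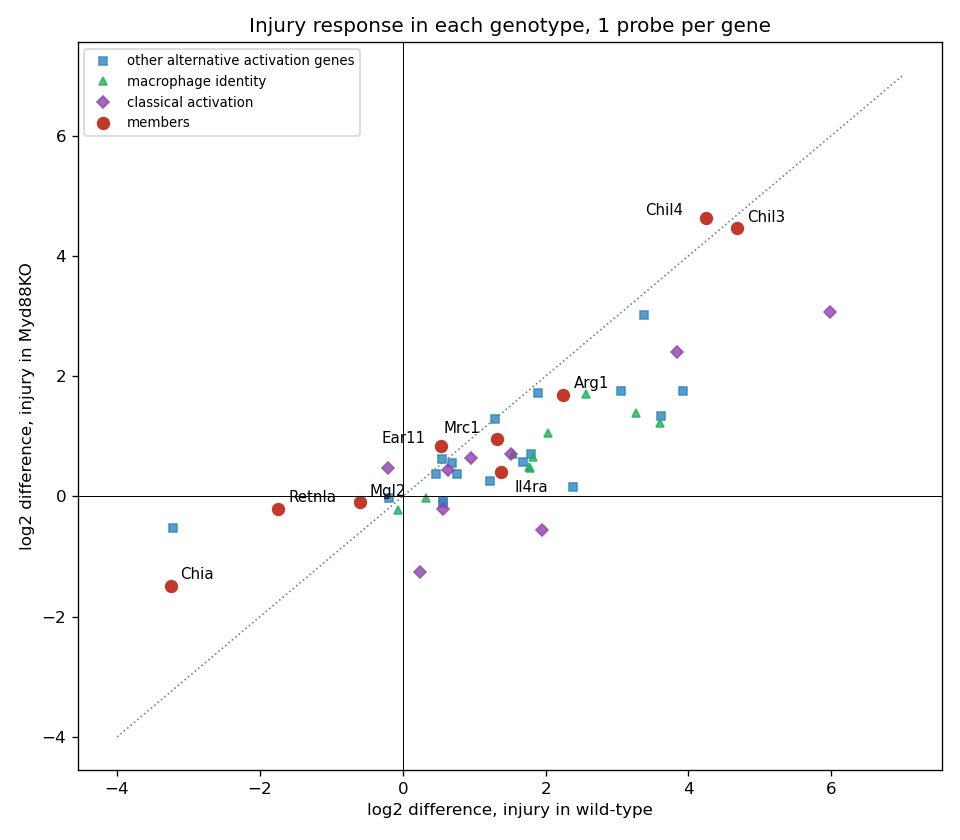
Log2 difference for injury in Myd88KO against that in wild-type, 1 probe per gene (probe A for Retnla and Chia, the brightest tested probe for listed genes), for the members (red, named) and the tested genes of 3 lists; the dotted line marks equal differences. Chil3 and Chil4 lie at the upper end near the line, Chia and Retnla lie lower left, and most macrophage identity and other alternative activation genes lie below the line. The wild-type and Myd88KO values come from different arrays.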

How the data were processed

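Total RNA of 20 whole tracheas was hybridized to Agilent one-colour mouse arrays, and the deposited scanner files hold the authors' Feature Extraction 9.5.1.1 intensity per spot, background-subtracted but not normalized between arrays. Values in a deposited table of processed intensity had ratios of 0.995 to 1.00 to the scanner values. Here outlier spots (1960 values) were left out, spots of 1 probe were averaged, and log2 intensity was taken relative to the 75th percentile of each array. R 4.3.3 and limma 3.58.1 fitted 4 group means to the 20 arrays, with 5 contrasts and Benjamini-Hochberg adjustment over 26063 probes well above background on at least 10 arrays. The number of arrays limits the precision. The script was tested on simulated data. Samples were grouped by their titles. All member probes were named, plus Myd88 and Scgb1a1; from each of 21 lists (177 genes, 141 tested), at most 4 called genes per contrast of lowest adjusted p, or the 2 of lowest p where none was called; and the 3 most similar probes per member. Il13, Tslp, Il4, the eosinophil markers, Siglec5, Msr1, Ltf, Scgb3a1, Lyz2 and Alox15 were named after their values were seen. A gene counted as called if any probe was. The members and lists were chosen with earlier results of these data known. Replicate numbers mark the slide, by the file headers: over 30 same-numbered pairs the deviations from group means correlated with r from -0.262 to 0.476 (median 0.242, 23 over 0.1). The study's methods filtered on presence in at least 10 of 20 samples and used one-way analysis of variance with Benjamini-Hochberg correction. As an alternative, a one-way test was tried here on the groups of each comparison alone, with that correction and also without it. Genome sequence was not used here, promoter windows are from RefSeq, and the exon or UTR position of the probes was not analysed.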

Additional observations from a re-analysis of the deposited data

Results flagged for a closer look

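One value stood far from the others of its group. In wild-type control, Arg1 read 1.95 on replicate 3, against -0.69 to -0.11 on the other 4 control arrays. It was the only such value among 44 groups of member values examined, and chance alone flags about 1 in 20 groups. Without that array the injury difference of Arg1 in wild-type was 2.71 (limma adjusted p = 0.0203), against 2.25 with it.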

How the results depend on the processing

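The alternatives were chosen with earlier results known, and the one that keeps outlier spots, with all those of the list genes, was added after seeing the data. Member probes called for injury in wild-type, 3 as reported, numbered 5 with slide as a replicate block (adding both Retnla probes), 6 with array weights and 5 with only the groups of the comparison. A one-way test of those 2 groups without adjustment, which is not the methods' corrected test, gave 7. Calls over all 26063 tested probes moved as well. They numbered 1372 as reported, 1548 with the slide block, 2598 with array weights, 1579 with only those groups and 3800 with the unadjusted test. Called member probes numbered 2, without Il4ra, with quantile normalization, without a filter on dim probes and with outlier spots kept. Calls over all probes there were 1439, 1108 (of 41174 probes) and 1349. For injury in Myd88KO, 1 as reported, called member probes numbered 0 without a filter on dim probes, 0 with the slide block, 3 with array weights, 0 with only the groups of the comparison and 0 with the one-way test adjusted. Leaving out single arrays gave 2 to 3 in wild-type and 0 to 2 in Myd88KO, and 0 to 0 between genotypes and for the difference between responses. Chil3 in Myd88KO kept its call without wild-type control replicate 3, wild-type injury replicates 1, 3 or 4 or Myd88KO injury replicate 5, and lost it without any other array; its adjusted p ran from 0.000133 to 0.159 and its difference from 4.00 to 5.33 over all alternatives. Chil3 and Chia probe A in wild-type were called under every alternative run. The slide block changed no other member call.

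Genes of the other lists called for injury in wild-type numbered 30 as reported and 18 to 37 without single arrays. In Myd88KO the 5 became 3 with probes well above background on all 20 arrays, 24 with array weights, 0 with only the groups of the comparison, 0 with the one-way test adjusted and 10 unadjusted, 3 with outlier spots kept, and 2 to 13 without single arrays. Between uninjured genotypes the 1 became 0 with probes above background on all arrays, 3 with array weights, 2 with only those groups, 0 with the one-way test adjusted and 12 unadjusted, and 0 to 2 without single arrays. Between injured genotypes the 1 became 2 with the slide block, 2 with scanning day as block, 2 with array weights, 0 with only those groups, 0 with the one-way test adjusted and 6 unadjusted, and 1 to 2 without single arrays. For the difference between responses the 0 became 1 with the slide block, 1 with scanning day as block, and 0 to 0 without single arrays. Over all tested probes, calls for injury in Myd88KO numbered 98 as reported, 143 with the slide block, 361 with scanning day as block and 1904 with array weights. They numbered 0 with only those groups and 0 with the one-way test adjusted. Without adjustment the one-way test called 1275 probes there, 743 between uninjured genotypes and 602 between injured genotypes. The cause of these shifts was not tested.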
